A study of Mus musculus with 18 samples.

Results

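The genes described here are 8 mouse paralogues that serve male germ cells in place of widely expressed housekeeping genes, out of 31053 genes in the single-cell tables. They were chosen by name (Rpl39l, Rpl10l, Slc25a31, Cyct, Pdha2, Ldhc, Pgk2 and Gapdhs), with earlier results of these data known, by a rule that uses no measured value, and each was matched to exactly 1 row. Only 4 of the 8 encode enzymes or enzyme subunits (Pdha2, Ldhc, Pgk2 and Gapdhs). Rpl39l and Rpl10l encode ribosomal proteins, Slc25a31 a mitochondrial adenine nucleotide carrier and Cyct an electron carrier, so the set is better called germline paralogues of housekeeping genes. Each was compared with its widely expressed counterparts, which number 10 in all because Slc25a31 and Ldhc have a pair each: Rpl39, Rpl10, Slc25a4, Slc25a5, Cycs, Pdha1, Ldha, Ldhb, Pgk1 and Gapdh.

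Germ cells of the testis run translation, glycolysis and respiration partly on dedicated gene copies. Several of the somatic counterparts lie on the X chromosome, which is silenced during male meiosis, and autosomal copies, some of them intronless retrogenes, are known to stand in for them. Outside the germline such genes are usually silent, and DNA methylation of their promoters, copied at each cell division by Dnmt1 and newly laid down by Dnmt3a and Dnmt3b, is one of the known means of keeping them so.

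The study profiled single embryonic day 8.5 embryos of the 129S4/SvJae background by droplet RNA sequencing that counts unique molecular identifiers (UMIs) near the 3′ end of transcripts. There were 18 libraries, each labelled as a single embryo: 7 wild type (WT), 3 Dnmt1 null (Dnmt1 KO), 4 Dnmt3a null (Dnmt3a KO, numbered 1, 2, 13 and 14) and 4 Dnmt3b null (Dnmt3b KO, numbered 1, 2, 11 and 12). The mutants came from matings of heterozygous parents. What the null alleles delete relative to the sequenced 3′ tag is not given in the sources used here.

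Barcodes with at least 1500 mouse UMIs were kept, 1628 to 15427 per library, with 38742721 to 262580123 UMIs in all. Libraries Dnmt3b KO 1 and 2 shared 12249 barcodes, against at most 133 in any other pair of libraries, so they were summed and counted as 1 replicate (Dnmt3b KO 1+2), leaving 17 replicates, which are called embryos below. The shared barcodes fell into 2 sets, 4965 with more UMIs in library 2 (median ratio of library 1 to library 2 of 0.466) and 7284 with more in library 1 (1.92), and only 9 had counts within 15% of each other. Whether the pair holds 1 embryo or 2 was not settled by these values. With the cells split into 2 replicates by set, an alternative added after the data were seen, the same numbers of the 8 genes were called against WT in each mutant. Dnmt1 UMIs stood at 14.9 to 15.6 counts per 1000000 UMIs (CPM) in Dnmt1 KO against 83.7 to 114 in WT, and Dnmt3a at 7.59 to 11.8 CPM in Dnmt3a KO against 23.5 to 34.5 in WT. Dnmt3b was at 57.9 to 68.3 CPM in the libraries labelled Dnmt3b KO and 35.9 to 87.1 in WT, so its tag did not check that label. The level of Dnmt3a in the libraries labelled Dnmt3b KO was 32.5 CPM in 1+2, 15.1 in 11 and 7.65 in 12, the last 2 below every WT embryo. Libraries 11 and 12 are therefore in doubt, and values without them, or the value of 1+2 alone, stand beside most of the Dnmt3b KO results below; the changes by class in ExE endoderm and the gene correlations are given with them only. Of the WT embryos only number 2 was male by Y-linked UMIs, and of the mutants only Dnmt3b KO 12 was female.

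The 8 germline paralogues were spread over 6 autosomes and none was X-linked, whereas 5 of the 10 counterparts were (Rpl39, Rpl10, Slc25a5, Pdha1 and Pgk1). A single exon was annotated for 3 of the 8: Rpl10l (mm10, chr12:66283379-66284401, minus strand), Pdha2 (chr3:141210004-141212355, minus) and Pgk2 (chr17:40207015-40208640, minus). The others were multi-exon genes: Rpl39l (chr16:10170226-10174911, plus, 3 exons), Slc25a31 (chr3:40708855-40726096, plus, 6 exons), Cyct (chr2:76353942-76360450, minus, 4 exons), Ldhc (chr7:46861203-46878142, plus) and Gapdhs (chr7:30729775-30743681, minus, 11 exons). Ldhc began 5.58 kb past the end of Ldha, on the same strand. The closest germline paralogue to any disrupted gene was Rpl10l, 62.5 Mb from Dnmt3a. Gapdhs overlapped genes on the other strand, and 0 windows of 90 bases of any of the 8 transcripts occurred in a transcript of another gene. The longest run shared with a counterpart was 38 bases, between Rpl39l and Rpl39, and the other pairs shared 14 to 23 bases.

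All 8 genes matched the RefSeq promoter table (GRCm38.p6, mm10), with 2 entries each for Ldhc and Gapdhs. Its windows run from 250 bases before to 50 bases after a gene's start. Because the disrupted enzymes act on cytosines followed by guanine, these CpG pairs were counted. Across 32851 promoters the median was 7 CpG, with quartiles of 3 and 20. Slc25a31 had 22, Rpl39l 17, Rpl10l 13, Cyct 8, and Pdha2 and Pgk2 4 each, while Ldhc had 9 and 3 and Gapdhs 4 and 1 in their 2 entries. The counterparts ranged from 12 to 32. The following 5 are shown because they span the set from the most CpG pairs to few, and from the genes called in all 3 mutants to one that stayed near 0. Each runs 5′ to 3′ on the gene's strand, in lower case with the CpG pairs in capitals.
Slc25a31 (chr3:40708621-40708920, plus): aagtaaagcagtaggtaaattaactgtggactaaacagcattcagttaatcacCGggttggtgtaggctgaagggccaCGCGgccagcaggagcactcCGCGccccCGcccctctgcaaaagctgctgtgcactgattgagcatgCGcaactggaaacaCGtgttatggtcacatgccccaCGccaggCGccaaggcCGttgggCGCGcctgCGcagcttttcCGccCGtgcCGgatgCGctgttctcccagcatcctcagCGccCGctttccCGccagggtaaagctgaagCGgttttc
Rpl39l (chr16:10169978-10170277, plus): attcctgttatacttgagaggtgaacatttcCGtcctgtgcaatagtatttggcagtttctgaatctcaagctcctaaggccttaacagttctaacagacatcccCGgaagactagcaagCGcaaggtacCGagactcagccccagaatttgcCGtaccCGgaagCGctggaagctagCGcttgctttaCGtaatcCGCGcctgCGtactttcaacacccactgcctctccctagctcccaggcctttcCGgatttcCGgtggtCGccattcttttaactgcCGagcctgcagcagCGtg
Cyct (chr2:76360404-76360703, minus): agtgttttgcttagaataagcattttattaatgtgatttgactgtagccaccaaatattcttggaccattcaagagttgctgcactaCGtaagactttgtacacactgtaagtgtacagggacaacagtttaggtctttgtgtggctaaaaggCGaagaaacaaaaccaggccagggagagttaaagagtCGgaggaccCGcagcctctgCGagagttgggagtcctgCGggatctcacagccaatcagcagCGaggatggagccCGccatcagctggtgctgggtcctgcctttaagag
Pdha2 (chr3:141212306-141212605, minus): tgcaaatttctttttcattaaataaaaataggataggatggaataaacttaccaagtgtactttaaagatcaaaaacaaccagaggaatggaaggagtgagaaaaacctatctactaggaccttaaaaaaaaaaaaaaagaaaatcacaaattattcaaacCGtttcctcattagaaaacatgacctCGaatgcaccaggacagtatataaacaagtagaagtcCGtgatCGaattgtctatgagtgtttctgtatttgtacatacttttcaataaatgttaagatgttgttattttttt
Pgk2 (chr17:40208560-40208859, minus): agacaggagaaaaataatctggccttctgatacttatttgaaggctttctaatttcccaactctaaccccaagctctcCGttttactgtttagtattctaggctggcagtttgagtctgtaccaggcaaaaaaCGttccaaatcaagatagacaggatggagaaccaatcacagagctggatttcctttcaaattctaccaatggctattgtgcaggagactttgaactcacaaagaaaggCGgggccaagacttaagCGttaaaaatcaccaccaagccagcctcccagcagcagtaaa

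The E-box letters CACGTG, read on both strands, occurred in 7.15% of all promoters and, among the 8 genes, once in Slc25a31. The E2F-type letters GCGGGA or TCCCGC occurred in 19.98% of all promoters and once each in Slc25a31, Rpl10l and Cyct. The longer TTTCGCGC or GCGCGAAA occurred in 0.323% of all promoters and in none of the 8 genes' windows. These are matches of letters only.

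Rpl39l, which encodes a protein of the large ribosomal subunit, was the most abundant of the 8 in every mutant group by UMI count. Counts at the 3′ end were not divided by transcript length. In WT embryos its level ran from 0.950 CPM to 3.04 CPM with a median of 1.91. The 3 Dnmt1 KO embryos stood at 130, 138 and 148 CPM (139 ± 8.63, SD, n = 3). Dnmt3a KO embryos 1, 2, 13 and 14 stood at 5.59, 11.9, 13.6 and 9.56 CPM. The libraries labelled Dnmt3b KO stood at 31.8 (1+2), 57.9 (11) and 118 CPM (12). No mutant embryo overlapped the WT range, the Dnmt1 KO embryos lay close together, and the Dnmt3b KO embryos spread widely. On the log2 scale, with edgeR's quasi-likelihood test and Benjamini-Hochberg adjustment over 18870 genes, Rpl39l rose by 6.21 (SE 0.37, adjusted p 2.32e-09) in Dnmt1 KO and by 5.09 (SE 0.36, adjusted p 1.60e-07) in Dnmt3b KO. In Dnmt3a KO it rose by 2.35 (SE 0.33, adjusted p 0.00121), and this call ended with a Y-linked covariate in the fit (log2 fold change 2.43, adjusted p 0.0222).

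Rpl10l, the intronless copy of the large-subunit gene Rpl10, was nearly silent in WT. The WT embryos ran from 0.0265 CPM to 0.106 CPM with a median of 0.0591, on 3 to 25 UMIs each. It stood at 9.85, 11.4 and 10.8 CPM in Dnmt1 KO embryos 1, 2 and 3. In Dnmt3a KO it stood at 0.127, 0.407, 0.345 and 0.432 CPM (embryos 1, 2, 13 and 14). The Dnmt3b KO embryos were at 1.98 (1+2), 2.25 (11) and 11.05 CPM (12). Every mutant embryo lay above every WT embryo, and Dnmt3b KO 12 reached the Dnmt1 KO range. Rpl10l rose by 7.54 (SE 0.51, adjusted p 1.02e-08) in Dnmt1 KO and by 6.33 (SE 0.50, adjusted p 5.13e-07) in Dnmt3b KO. The change in Dnmt3a KO, 2.402 (SE 0.49), missed the threshold of 0.01 at an adjusted p of 0.0292. It passed with DESeq2, with the Y-linked covariate (3.55, adjusted p 0.0099) and without library Dnmt3b KO 12 (2.43) or 11 and 12 (2.403).

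Slc25a31 encodes the testis form of the carrier that exchanges ADP and ATP across the inner mitochondrial membrane. Its WT levels ran from 0.547 CPM to 1.34 CPM with a median of 0.976. Dnmt1 KO embryos stood at 19.0, 13.7 and 18.2 CPM and Dnmt3a KO embryos at 3.34, 6.27, 7.10 and 6.44 CPM. The libraries labelled Dnmt3b KO stood at 13.96 (1+2), 20.7 (11) and 42.1 CPM (12). No mutant embryo overlapped WT. The Dnmt3b KO and Dnmt1 KO embryos overlapped, and the difference between the groups was not called (0.47 higher in Dnmt3b KO on the log2 scale, SE 0.36) and changed sign without library 12 (-0.0098) or without 11 and 12 (-0.44). The log2 fold changes were 4.17 in Dnmt1 KO (SE 0.30, adjusted p 2.37e-08), 2.52 in Dnmt3a KO (SE 0.28, adjusted p 0.000176) and 4.64 in Dnmt3b KO (SE 0.30, adjusted p 8.32e-08), all called higher.

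Cyct, the testis form of cytochrome c, ran from 0.226 CPM to 0.546 CPM in WT with a median of 0.287. Dnmt1 KO embryos stood at 26.3, 28.0 and 22.8 CPM and Dnmt3a KO embryos at 2.32, 5.39, 4.78 and 2.51 CPM. The libraries labelled Dnmt3b KO were at 6.61 (1+2), 17.05 (11) and 27.0 CPM (12). All mutant embryos were above all WT embryos. Among the 6 genes that could be tested, Cyct had the largest change in Dnmt3a KO, at 3.48 on the log2 scale (SE 0.35, adjusted p 7.43e-05). It rose by 6.33 (SE 0.38, adjusted p 2.53e-09) in Dnmt1 KO and by 5.61 (SE 0.37, adjusted p 8.32e-08) in Dnmt3b KO.

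Pdha2, the intronless testis form of the E1 alpha subunit of pyruvate dehydrogenase, had 11 UMIs in the 7 WT embryos together, 3 of which had none. Dnmt1 KO embryos stood at 4.66, 3.12 and 7.78 CPM (433 to 687 UMIs each). The libraries labelled Dnmt3b KO stood at 0.462 (1+2), 1.12 (11) and 9.32 CPM (12), the widest spread relative to the mean among the 6 tested genes in that group. In Dnmt3a KO only 15 UMIs were counted in 4 embryos, a range of 0.00437 to 0.0270 CPM that overlapped the WT range of 0 to 0.0258. Pdha2 rose by 9.21 (SE 0.85, adjusted p 4.50e-07) in Dnmt1 KO and by 8.54 (SE 0.85, adjusted p 5.27e-06) in Dnmt3b KO. Its log2 fold change in Dnmt3a KO was 0.82 (SE 1.30, adjusted p 0.912), too imprecise at this depth to place it.

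Ldhc, the testis subunit of lactate dehydrogenase, was the only tested gene whose level overlapped WT in both Dnmt3a KO and Dnmt3b KO and was above 0 in every WT embryo. The WT embryos ran from 0.458 CPM to 1.25 CPM with a median of 1.08. Dnmt1 KO embryos stood at 2.69, 3.5999 and 2.56 CPM, all above WT, and it rose by 1.76 (SE 0.26, adjusted p 5.12e-05). With extraembryonic (ExE) ectoderm, ExE endoderm and unnamed cells left out, the value was -0.07 and the call was lost. Allantois and ExE mesoderm stayed in, and this setting is named without ExE and unnamed cells below. ExE ectoderm, an extraembryonic class, made up 12.5% of Dnmt1 KO cells and 0.225% of WT cells on average. Dnmt3a KO embryos ran from 0.803 to 1.26 CPM and the libraries labelled Dnmt3b KO from 0.863 to 1.28 CPM, both overlapping the WT range, with 1 Dnmt3a KO and 2 Dnmt3b KO embryos slightly above its top. The log2 fold changes there were 0.03 (SE 0.25, adjusted p 0.991) and 0.28 (SE 0.27, adjusted p 0.630).

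The glycolytic genes Pgk2 (phosphoglycerate kinase) and Gapdhs (the sperm form of glyceraldehyde-3-phosphate dehydrogenase) stayed at the limit of detection and failed the low-count filter. Of Pgk2, WT embryos together had 1 UMI, Dnmt1 KO 1, Dnmt3a KO 0 and Dnmt3b KO 3. A count of 0 in the 913599458 UMIs of Dnmt3a KO allows a level of up to 0.00328 CPM. Gapdhs had 13, 3, 12 and 5 UMIs in the same order. Its pooled level in Dnmt1 KO was 0.00897 CPM, with an exact Poisson 95% interval of 0.00185 to 0.0262, against 0.01003 CPM (0.00534 to 0.0172) in WT. These intervals cover counting error only.

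**Figure D1:**
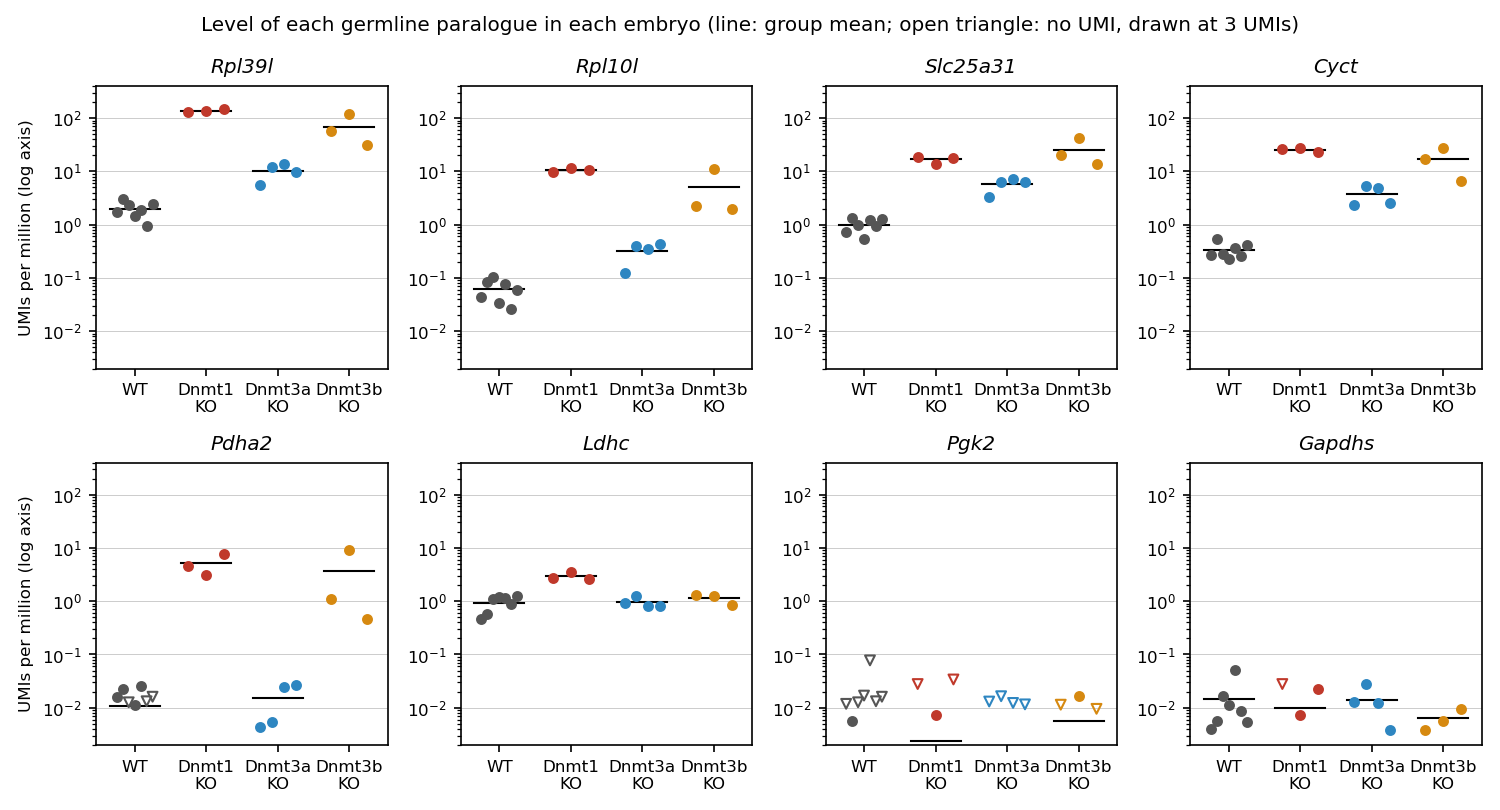
Level of each germline paralogue (CPM, log axis) in each of 17 embryos, with Dnmt3b KO 1 and 2 summed; lines are group means where above 0, and open triangles are embryos with no UMI, drawn at the level of 3 UMIs. Rpl39l reached 130 to 148 CPM in Dnmt1 KO against at most 3.04 in WT, whereas Pgk2 and Gapdhs stayed near the floor in every group.

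Counted together, 6 of the 8 genes could be tested. All 6 were called higher in Dnmt1 KO (adjusted p below 0.01 with a log2 change no smaller than 1), where 8.19% of all genes tested were. Pgk2 and Gapdhs, near 0 in every group, failed the low-count filter. Pdha2, nearly absent from WT and Dnmt3a KO, passed it only through the mutants where it was high, so these counts partly follow the filter. Without ExE ectoderm, ExE endoderm and unnamed cells the Dnmt1 KO call of Ldhc was lost and the other 5 were kept. The cells left out there made up 12.5%, 20.4% and 41.2% of Dnmt1 KO cells on average, in that order. In WT they made up 0.225%, 12.6% and 20.2%. In Dnmt3a KO 3 of 6 were called higher (Rpl39l, Slc25a31 and Cyct), against 0.196% of all genes. In the embryos labelled Dnmt3b KO 5 of 6 were, all but Ldhc, against 1.83% of all genes. In whole embryos, fewer cells of a type and less RNA per cell cannot be told apart. The median log2 fold changes of the 6 genes were 6.27, 2.38 and 5.35, beside 0.01, 0.00 and -0.01 over all genes tested. The 3 comparisons share the same WT embryos. Every mutant embryo lay above every WT embryo for 6 genes in Dnmt1 KO (10.4% of all genes did so), for 4 in Dnmt3a KO (2.07%) and for 5 in Dnmt3b KO (5.74%).

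Leaving out libraries 11 and 12 leaves 1 embryo labelled Dnmt3b KO, which is assumed to vary like the other groups. The log2 fold changes of the same 5 genes against WT were then 3.91 (Rpl39l), 4.94 (Rpl10l), 3.72 (Slc25a31), 4.20 (Cyct) and 5.54 (Pdha2). The 3 Dnmt3b KO values of each of these genes were highest in library 12. That library had the lowest Dnmt3a level of the 3, was the only female mutant and was the only one made with version 5.0.0. Whether any of these is related to the levels was not tested, and 3 embryos cannot tell them apart.

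**Figure D2:**
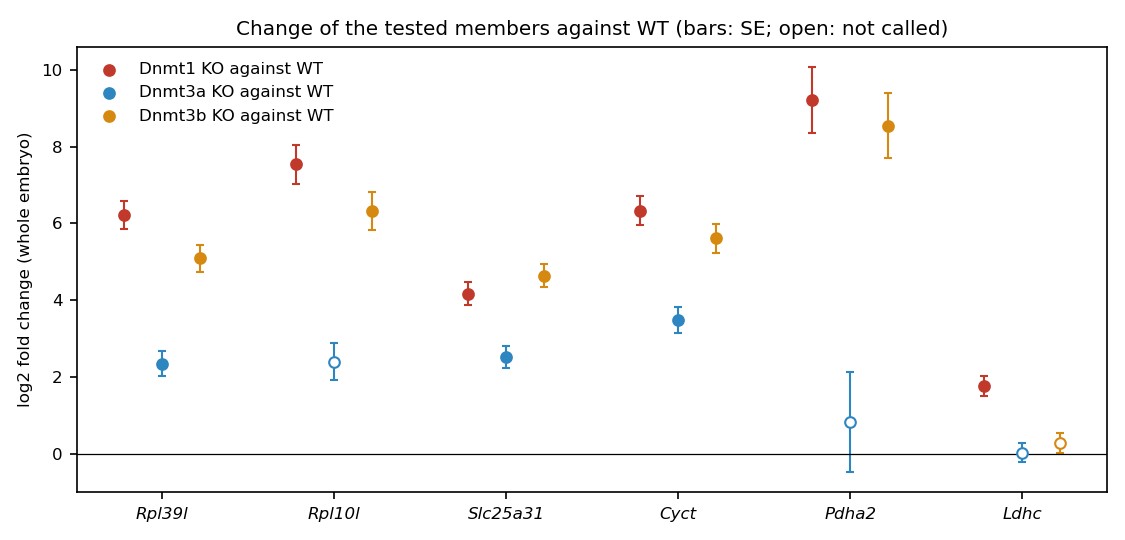
Log2 fold change against WT of the 6 germline paralogues that passed the low-count filter, with SE bars; filled points were called. Dnmt3a KO changes lay between 0.03 and 3.48, each below the Dnmt1 KO and Dnmt3b KO change of the same gene.

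The mutants were also compared directly. Between Dnmt1 KO and Dnmt3a KO all 6 genes were higher in Dnmt1 KO (6.89% of all genes were), by 1.65 (Slc25a31) to 8.39 (Pdha2) on the log2 scale. Between Dnmt3b KO and Dnmt3a KO 4 genes were called higher in Dnmt3b KO, against 0.207% of all genes: Rpl39l by 2.74 (SE 0.40), Rpl10l by 3.93 (SE 0.53), Slc25a31 by 2.12 (SE 0.34) and Pdha2 by 7.72 (SE 0.97). Cyct, at 2.13 (SE 0.40), missed the threshold with an adjusted p of 0.0169, and passed it with DESeq2, without TMM scaling, without the low-count filter, without ExE (extraembryonic) and unnamed cells (2.62) and without Dnmt3b KO 1+2. Without libraries 11 and 12, 0 of 6 genes were called by edgeR, although 4 had an unadjusted p under 0.05 (DESeq2 was not run in that setting). The call of Rpl39l also ended without Dnmt3a KO 1, 2 or 14 or Dnmt3b KO 12 alone, and with the Y-linked covariate (2.68). That of Slc25a31 ended without any 1 Dnmt3a KO embryo or Dnmt3b KO 12, with the Y-linked covariate (2.01) or a covariate for the combined mapping reference (2.07), with Dnmt3b KO 1 and 2 kept apart (1.93) and without ExE and unnamed cells (2.44).

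Between Dnmt3b KO and Dnmt1 KO only Ldhc was called, lower in Dnmt3b KO, with a log2 difference of -1.49 (SE 0.32, adjusted p 0.00312), where 3.86% of all genes were called lower and 4.98% higher. The call ended without Dnmt1 KO 2 (-1.31), without Dnmt3b KO 1+2 (-1.27) and without libraries 11 and 12 (-1.94), and without ExE and unnamed cells the difference changed sign (0.043). The other 5 differences ran from -1.21 (Rpl10l, SE 0.52) to 0.47 (Slc25a31, SE 0.36). Without Dnmt3b KO 12, Rpl10l (-2.398) and Pdha2 (-2.74) were also called lower than in Dnmt1 KO, as was Pdha2 without 11 and 12 (-3.66).

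Among the widely expressed counterparts, 0 of 10 were called with edgeR in each mutant against WT. Of the 18870 genes tested, 2695 (Dnmt1 KO), 39 (Dnmt3a KO) and 351 (Dnmt3b KO) were called in either direction. Beside those shares, 0 of 10 does not set the counterparts apart from other genes. In the same order of mutants, 4, 1 and 0 counterparts had an unadjusted p under 0.05 with edgeR. DESeq2 called 0 and gave the same 4, 1 and 0. Their log2 fold changes ran from -0.46 (Pgk1) to 0.67 (Ldhb) in Dnmt1 KO, from -0.57 (Ldhb) to 0.25 (Pgk1) in Dnmt3a KO and from -0.23 (Cycs) to 0.29 (Ldhb) in Dnmt3b KO. Other fits called some of them. Ldhb, the heart-type subunit of lactate dehydrogenase, was called higher in Dnmt1 KO with the Y-linked covariate (1.17, SE 0.28, adjusted p 0.00663), within endothelium (1.04), and in Dnmt1 KO against Dnmt3a KO (1.24, SE 0.24, adjusted p 0.000869; 1.28 within endothelium). Pgk1 was called lower in Dnmt1 KO than in Dnmt3a KO within gut (-1.17).

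Setting each gene against its counterpart in the same library removes sequencing depth. In WT there were 0.686 ± 0.237 UMIs of Rpl39l per 1000 UMIs of Rpl39 (SD, n = 7). The ratio was 43.1 ± 7.56 in Dnmt1 KO (n = 3), 3.55 ± 1.32 in Dnmt3a KO (n = 4) and 30.3 ± 25.4 in the embryos labelled Dnmt3b KO (n = 3). The largest group means were those of Cyct and Pdha2 in Dnmt1 KO, at 69.6 ± 4.43 UMIs per 1000 Cycs and 53.8 ± 25.1 per 1000 Pdha1, from 0.744 ± 0.228 and 0.104 ± 0.105 in WT. Pdha2 stood at 35.1 ± 47.3 per 1000 Pdha1 in Dnmt3b KO. Library Dnmt3b KO 12 alone had 89.6, and 85.0 UMIs of Slc25a31 per 1000 Slc25a5. Even there the widely expressed form remained the main one by UMI count, and capture at the 3′ end may differ between the transcripts of a pair.

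Slc25a31 rose from 1.4998 ± 0.531 per 1000 Slc25a4 in WT to 21.96 ± 8.52 (Dnmt1 KO), 34.8 ± 17.8 (Dnmt3b KO) and 8.13 ± 2.51 (Dnmt3a KO). Its ratio went from 1.88 ± 0.593 per 1000 Slc25a5 to 29.9 ± 5.84, 48.6 ± 31.9 and 10.2 ± 2.87 in the same order. Rpl10l rose from 0.0301 ± 0.0156 per 1000 Rpl10 to 4.86 ± 0.665, 2.32 ± 2.28 and 0.165 ± 0.0797, again in that order. For Cyct the Dnmt3a KO and Dnmt3b KO means were 8.73 ± 3.57 and 42.5 ± 26.2 per 1000 Cycs. In Dnmt3b KO 1+2 alone the ratios were 10.7 for Rpl39l, 1.05 for Rpl10l, 20.5 and 25.8 for Slc25a31 (to Slc25a4 and Slc25a5), 16.96 for Cyct and 4.17 for Pdha2, each above the WT mean.

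The log2 ratios were compared with exact two-sided permutation tests over embryos, for 27 pairs and mutants together. The smallest possible p is 0.0167 for 3 against 7 embryos and 0.00606 for 4 against 7, and the difference reached it for 8 of the Dnmt1 KO pairs, 6 of the Dnmt3a KO pairs and 6 of the Dnmt3b KO pairs, each with an adjusted p of 0.0225. With 1 of the 3 mutant embryos left out that level cannot be reached in Dnmt1 KO or Dnmt3b KO.

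The Ldhc result depended on the counterpart in Dnmt3a KO. Ldhc per 1000 Ldhb rose from 17.7 ± 2.16 in WT to 41.0 ± 17.5 in Dnmt1 KO and 26.7 ± 3.35 in Dnmt3a KO. In Dnmt3a KO all 4 embryos were above all 7 WT embryos (log2 difference 0.60, exact permutation p 0.00606, adjusted 0.0225). There the level of Ldhc itself did not differ detectably from WT (log2 fold change 0.03) while that of Ldhb stood at -0.57, which was not called either (adjusted p 0.336 with edgeR). The Dnmt3a KO embryos had 31.7 to 39.7 CPM of Ldhb, inside the WT range of 31.4 to 72.8. Per 1000 Ldha, Ldhc stood at 0.491 ± 0.174 in WT, 2.002 ± 0.554 in Dnmt1 KO and 0.455 ± 0.136 in Dnmt3a KO. In Dnmt3b KO the Ldhc values were 17.9 ± 2.75 per 1000 Ldhb and 0.551 ± 0.117 per 1000 Ldha, with adjusted permutation p of 0.987 and 0.802 (exact tests).

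**Figure D3:**
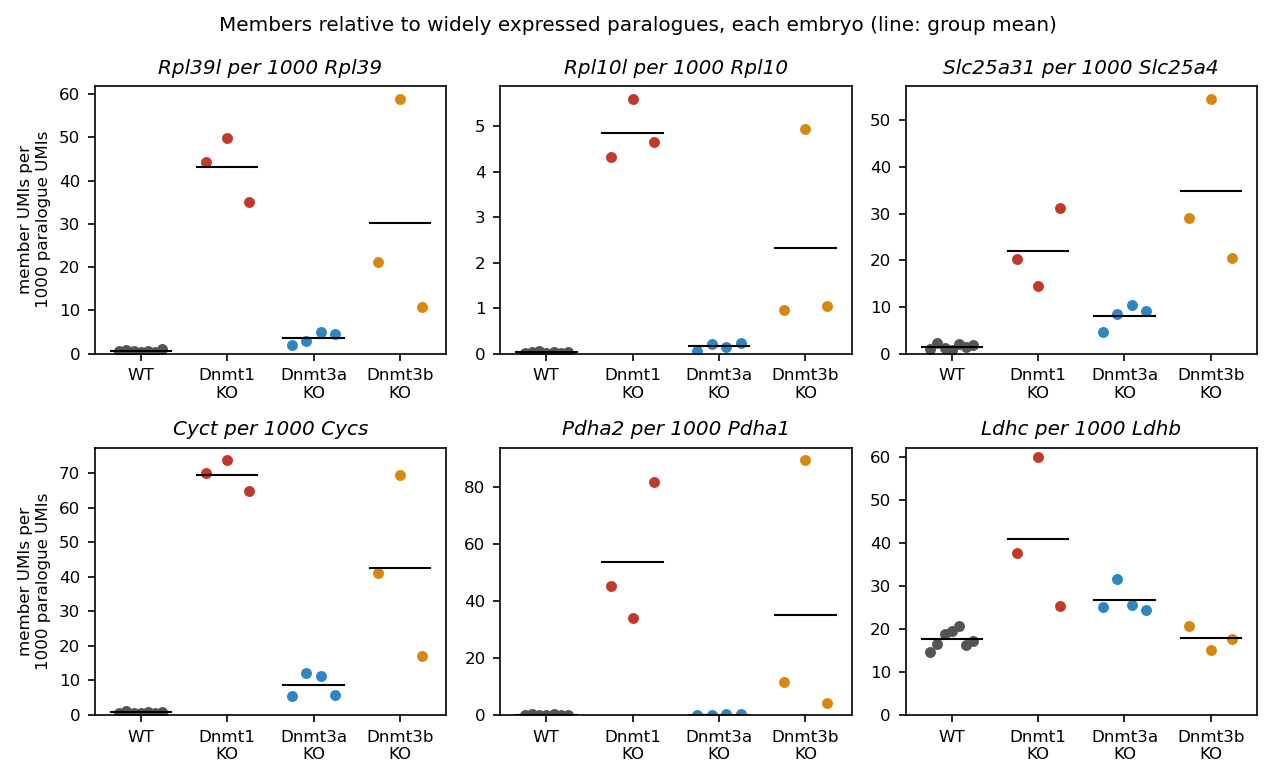
UMIs of 6 germline paralogues per 1000 UMIs of a widely expressed counterpart in each of 17 embryos (linear axes from 0, lines are group means). Cyct reached 64.9 to 73.8 per 1000 Cycs in Dnmt1 KO against at most 1.16 in WT, and Ldhc per 1000 Ldhb was above every WT embryo in Dnmt1 KO and Dnmt3a KO.

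Cells were then sorted into classes by marker lists, with all 8 genes and their counterparts kept out of the clustering. A class name stands for cells that carry those markers, extraembryonic is shortened to ExE, and the lists held no germ cells, so primordial germ cells were in no class of their own. Clusters stayed unnamed if they showed too few markers of a list, matched 2 lists alike, were led by genes of another list or were shallow. Unnamed cells may thus include cells of the listed types. They made up 41.2% of Dnmt1 KO cells on average, beside 20.2% in WT, 21.2% in Dnmt3a KO and 19.5% in Dnmt3b KO. ExE endoderm was made up of clusters 1, 2, 8 and 20. Of the reference cells, up to 1500 per library, 94.7% in cluster 8 and 94.4% in cluster 19 (allantois and ExE mesoderm) were Dnmt1 KO, whereas WT gave the largest share of clusters 1 and 2, so partly different clusters hold these classes in Dnmt1 KO and WT. A class was compared where at least 3 embryos of each group had 25 or more of its cells, which left 5 classes in Dnmt1 KO and 15 in each of the others.

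In WT the levels differed between classes. Rpl39l was highest in ExE endoderm, the absorptive layer of the yolk sac, in 7 of 7 WT embryos, at 8.65 ± 4.06 CPM against a median of 0.657 CPM over the 15 classes. ExE endoderm held 15.7% of all WT UMIs and 63.5% of those of Rpl39l. Slc25a31 was also highest there in 7 of 7 embryos, at 4.56 ± 1.17 CPM with 69.1% of its UMIs, against a class median of 0.361 CPM. Rpl10l was highest in ExE endoderm in 5 of 7, at only 0.295 ± 0.145 CPM. Ldhc had another pattern: surface ectoderm was its highest class by mean, at 2.15 ± 0.557 CPM, and erythroid cells its lowest, at 0.0752 ± 0.0629 CPM.

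In Dnmt1 KO Rpl39l, Rpl10l, Slc25a31 and Cyct were called higher in 5 of 5 classes, and Pdha2 in the 4 where it was tested. Of all genes, taken over the classes together, 4.02% were called higher. No WT class mean of Pdha2 was above 0.0474 CPM, so it passed the low-count filter only where a mutant was high. Its counts of classes are therefore partly set by the filter. The same limit holds for Rpl10l in classes where WT was near 0. Its WT median over classes was 0 CPM and its highest WT class mean 0.295 CPM, in ExE endoderm. ExE endoderm, where Pdha2 was at 0.222 CPM in Dnmt1 KO, was the class in which Pdha2 was not tested. In the embryos labelled Dnmt3b KO (0.672% of all genes over the classes together) Rpl39l was called in 15 of 15, Slc25a31 and Cyct in 14 of 15, Rpl10l in 11 of 12 and Pdha2 in 4 of 6. Without libraries 11 and 12 the numbers of classes were 13, 14 (Slc25a31), 10 (Cyct), 8 and 1 for the same genes, and Pdha2 was called in 10 without 1+2 and in 13 when low counts were not filtered. In Dnmt3a KO (0.104%) the counts were lower: Slc25a31 was called in 12 of 15 classes, Rpl39l in 5 of 15, Cyct in 4 of 15, Rpl10l in 1 of 12 and Pdha2 in 0 of 6. None of those 6 Pdha2 tests had an unadjusted p under 0.05 with edgeR, and DESeq2 also called 0. By class in Dnmt3a KO, DESeq2 called Rpl39l in 10 classes, Cyct in 9, Rpl10l in 2 and Slc25a31 in 12, and with no low-count filter Rpl39l was called in 13 and Cyct in 12. The shares of all genes called by class in these settings are not given here, so 0.104% does not serve for them. Over the whole embryo DESeq2 called 110 of all genes in Dnmt3a KO against WT, and edgeR 39.

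The Dnmt3a KO counts by class depended on single embryos, with 23 calls over the 6 genes and all classes in the full set. There were 11 without Dnmt3a KO 13, 14 without Dnmt3a KO 14, and 15 without any 1 of WT 3, 4 and 6.

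The change was smallest in ExE endoderm for Rpl39l and Slc25a31 in all 3 mutants, at 3.51, 1.77 and 3.37 on the log2 scale for Rpl39l and 2.03, 1.29 and 1.98 for Slc25a31 (Dnmt1 KO, Dnmt3a KO and Dnmt3b KO). The median changes over classes were 7.48, 2.96 and 6.56 for Rpl39l and 4.81, 4.31 and 6.60 for Slc25a31. This class also started from the highest WT level, and the difference between classes was not itself tested. In Dnmt1 KO the order of Rpl39l was turned over. ExE endoderm became its lowest class in 3 of 3 embryos, at 92.5 ± 8.503 CPM, below ExE ectoderm (146 ± 14.5), gut (191 ± 3.82), endothelium (195 ± 11.1) and megakaryocytes (205 ± 3.68). Gut and endothelium, and endothelium and megakaryocytes, differed by no more than the endothelial SD. In Dnmt3a KO, by contrast, ExE endoderm was the highest class in 4 of 4 embryos, at 29.2 ± 11.1 CPM against a class median of 6.17, and held 42.4% of Rpl39l UMIs from 15.3% of all UMIs. In Dnmt3b KO it was highest by mean (90.7 ± 34.0 CPM) but in 1 of 3 embryos only, 1+2 at 64.0 CPM, whereas endothelium was highest in library 11 (90.5) and allantois and ExE mesoderm in library 12 (158).

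Notochord cells were another high point for some of the genes. Rpl39l, by contrast, was lowest in notochord in 2 of 4 Dnmt3a KO embryos. In the embryos labelled Dnmt3b KO, Slc25a31 and Cyct were highest in notochord cells in 3 of 3 embryos. They stood at 79.1 ± 27.5 and 55.6 ± 28.5 CPM, against class medians of 27.9 and 16.2 CPM. Embryo 1+2 alone stood at 55.1 and 22.7 CPM there, on 85 and 35 UMIs. Rpl10l was highest in notochord in 2 of the 3 embryos, at 4.54 (1+2) and 28.9 CPM (12), on 7 and 22 UMIs. In Dnmt3a KO the notochord was highest for Slc25a31 and for Cyct in 3 of 4 embryos each, at 23.8 ± 11.98 and 14.5 ± 13.3 CPM. The class is small, 0.463% of Dnmt3b KO cells and 0.376% of Dnmt3a KO cells (139 cells in 4 embryos). The part of counting error in these ranks was not tested. In Dnmt1 KO, where too few notochord cells were found to be compared, gut was highest for Slc25a31 (33.2 ± 9.22 CPM), Cyct (62.3 ± 21.4) and Rpl10l (24.4 ± 5.19) in 3 of 3 embryos each.

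Pdha2 was lowest where Rpl39l had been highest in WT. In Dnmt1 KO it stood at 0.222 ± 0.116 CPM in ExE endoderm, its lowest class in 3 of 3 embryos, and at 14.2 ± 3.19 CPM in endothelium. In Dnmt3b KO the same classes had 0.285 ± 0.325 and 7.26 ± 9.78 CPM. Embryo 1+2 alone had 0.982 CPM in endothelium and 0 UMIs in ExE endoderm. The latter held 2324 barcodes, where a barcode shared by libraries 1 and 2 is counted in each, so distinct cells were fewer. There were a median of 1.86 Pdha2 UMIs per 1000 Rpl39l UMIs in ExE endoderm of Dnmt1 KO embryos (range 1.49 to 3.82) against 70.7 (60.9 to 86.0) in endothelium. In Dnmt3b KO the medians were 2.73 and 25.2. The classes did not overlap in either mutant, so the 2 genes did not stand in a fixed proportion across these classes.

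By class, Ldhc was called higher in 1 class with edgeR, ExE endoderm, in each of the 3 mutants: by 2.36 (SE 0.29, adjusted p 1.18e-05) in Dnmt1 KO, 1.54 (SE 0.27, adjusted p 0.00406) in Dnmt3a KO and 1.82 (SE 0.29, adjusted p 0.000777) in Dnmt3b KO. Of all genes tested in ExE endoderm, 3.5%, 0.471% and 1.19% were called higher. The 6 other classes tested in the latter pair ran from -0.91 (neuroectoderm, Dnmt3a KO) to 0.60 (NMP, the neuromesodermal progenitors, Dnmt3b KO), and gut in Dnmt1 KO was at 1.52 with an adjusted p of 0.0104. In Dnmt1 KO the number of classes called was 2 with DESeq2, with cell limits on mitochondrial and ribosomal reads, with Dnmt3b KO 1 and 2 kept apart, and without Dnmt1 KO 2 or Dnmt3a KO 14. Whether ExE endoderm differed from the others was not tested. The ExE endoderm call in Dnmt3a KO ended without Dnmt3a KO 2 or 13, without any 1 of WT 3, 4, 6 and 7, and with the Y-linked covariate, and that in Dnmt3b KO ended without library 12 and without 11 and 12 together.

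Cell composition also differed between Dnmt1 KO and WT. ExE ectoderm, the precursor of the placental trophoblast, made up 12.5% ± 13.98 of Dnmt1 KO cells and 0.225% ± 0.574 of WT cells. Its 7 marker genes summed to 44.5 to 212 CPM in Dnmt1 KO embryos and 10.8 to 18.4 in WT, with 6 of 7 detected in both groups and Tpbpa at 0 in both. Ldhc stood at 5.04 ± 0.873 CPM in ExE ectoderm of Dnmt1 KO, which held 34.9% of its UMIs from 18.9% of all UMIs. Without ExE ectoderm, ExE endoderm and unnamed cells the log2 fold change of Ldhc was -0.07 (adjusted p 0.898). That setting also removes ExE endoderm, where Ldhc was called higher within the class, so the part of composition in the whole-embryo change was not tested. The other 5 genes were called higher in Dnmt1 KO in that setting too.

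**Figure D4:**
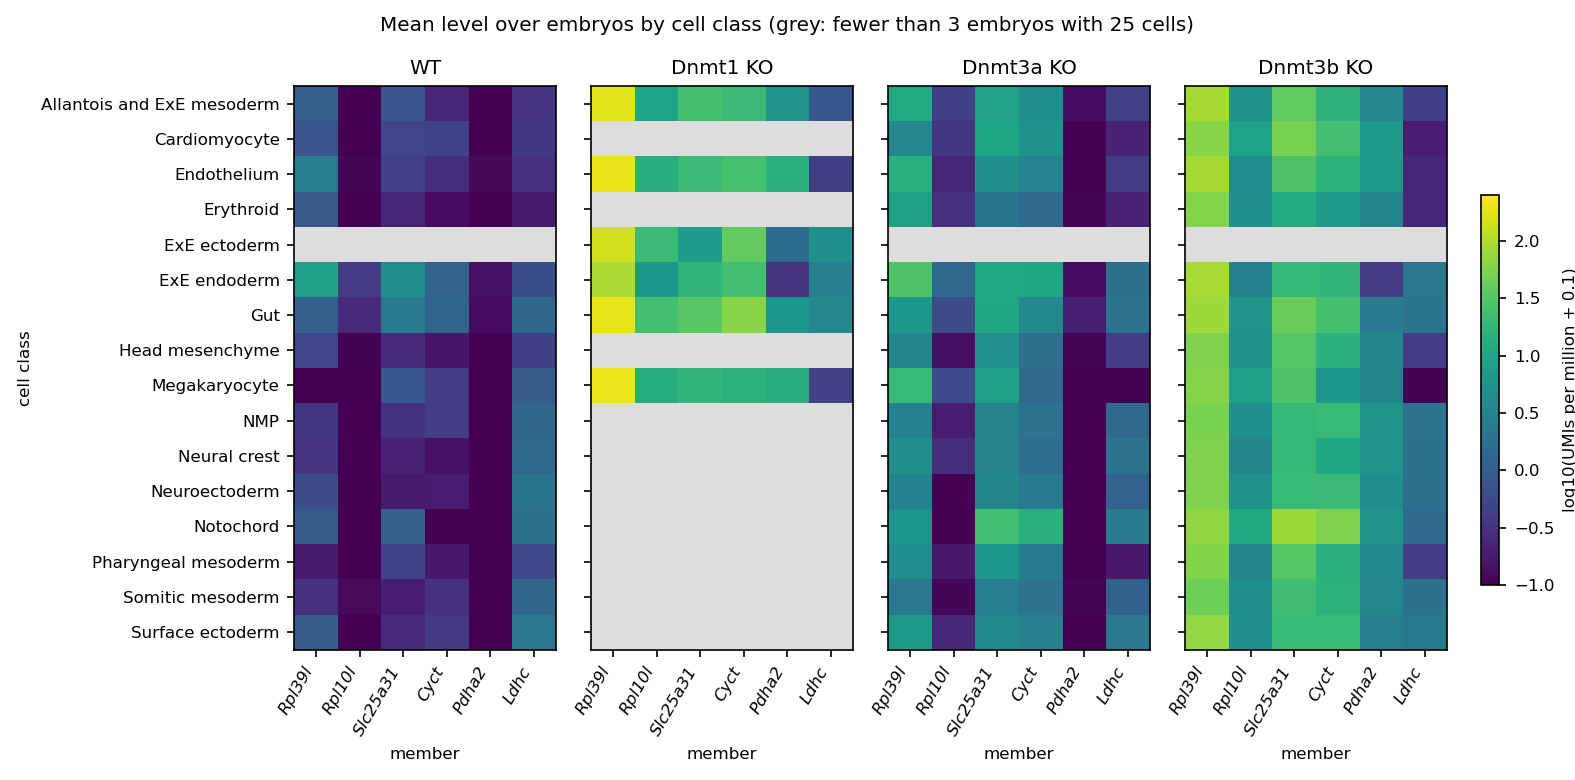
Mean level over embryos, as log10(CPM + 0.1), of the 6 tested germline paralogues (columns) in 16 cell classes (rows) of each group; grey marks classes with fewer than 3 embryos of 25 cells. The WT signal of Rpl39l (8.65 CPM) and Slc25a31 (4.56 CPM) stood out in ExE endoderm, and the lowest class means in the embryos labelled Dnmt3b KO were 44.6 and 11.7 CPM.

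Single cells were then counted. With every cell thinned to 3000 UMIs and shallower cells left out, the median library had a Rpl39l UMI in 0.457% of WT cells, 30.1% of Dnmt1 KO cells and 2.59% of Dnmt3a KO cells. The libraries labelled Dnmt3b KO had 8.05% (1) and 7.62% (2), which share barcodes and are not independent, 14.6% (11) and 27.5% (12). The cells left out numbered 8476 in Dnmt3a KO, 6780 in WT and 1799 in Dnmt1 KO, and 2638, 2294, 758 and 580 in the 4 Dnmt3b KO libraries. Median depth before thinning ranged from 4052 to 56928 UMIs per cell, and unthinned shares of Rpl39l ran from 0.944% to 2.80% in WT and from 49.8% to 80.7% in Dnmt1 KO. At 20000 UMIs per cell, a depth added after the data were seen, Rpl39l was found in 80.6% to 84.0% of Dnmt1 KO cells, 30.9% to 79.8% of Dnmt3b KO cells, 5.404% to 12.4% of Dnmt3a KO cells and 0.639% to 2.35% of WT cells. These shares describe the deeper cells only, since that depth kept 4747 Dnmt1 KO cells and left out 4131, kept 17374 and left out 22816 in Dnmt3a KO, and kept 22375 and left out 17883 in WT. In Dnmt3b KO libraries 1, 2, 11 and 12 it left out 8665, 7980, 4686 and 2488. Free RNA in a mutant library carries that library's own transcripts, so the WT share gives no background for mutant cells. In barcodes under 1500 UMIs the median level of Rpl39l was 60.3 CPM in Dnmt1 KO and 5.09 CPM in WT, and the part of free RNA in the mutant shares was not tested.

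An equal mean in every cell would have given 93.4% to 94.7% in Dnmt1 KO, from the Poisson distribution, so some cells held more of the transcript than others. The variance was 2.26 to 2.48 times the mean in Dnmt1 KO, 2.44 to 3.11 times in Dnmt3a KO, 1.89 to 2.52 times in Dnmt3b KO and 2.45 to 5.71 times in WT. For Slc25a31, 22.6% to 30.4% of Dnmt1 KO cells were positive where an equal mean would give 25.3% to 33.8%, with a variance of 1.26 to 1.29 times the mean. For Cyct the values were 29.3% to 32.8%, 35.5% to 42.0% and 1.52 to 1.84 times. The mean differs between these genes, so neither measure ranks them by evenness.

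**Figure D5:**
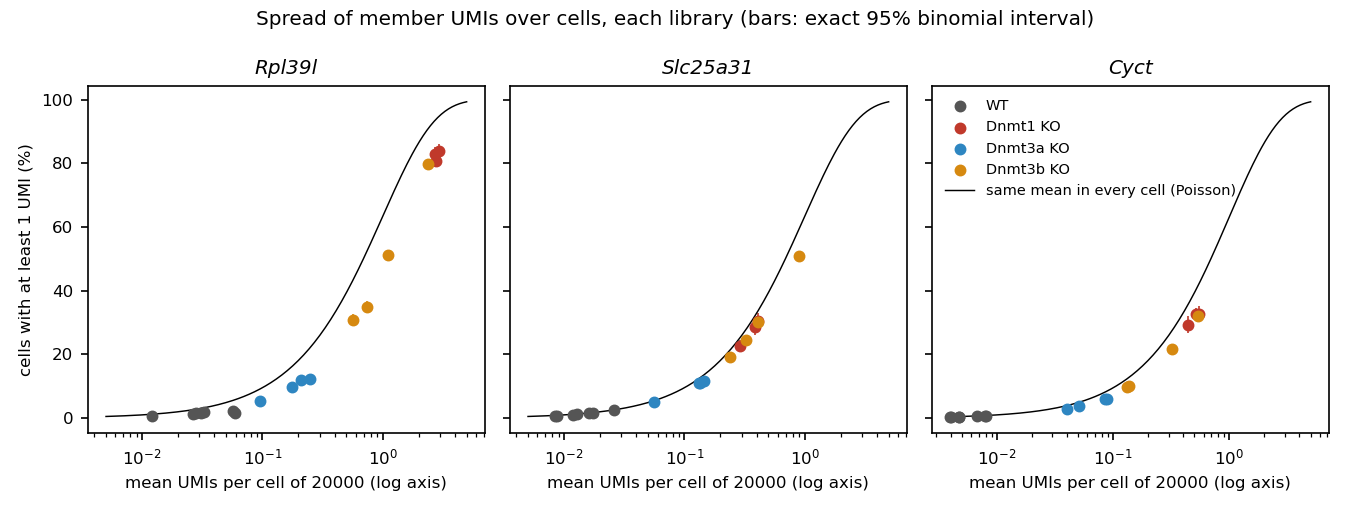
Share of cells with at least 1 UMI (percent, exact 95% binomial interval) against the mean UMIs per cell (log axis) after thinning to 20000 UMIs, each point 1 library, with the curve for an equal mean in every cell. Dnmt1 KO libraries reached 80.6 to 84.0% for Rpl39l, under the 93.4 to 94.7% of the curve.

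Across the 17 embryos, the genes whose log2 levels ran most closely with each member were named as a description, since all points share the same split between WT and mutants. For Rpl39l they were 3830403N18Rik, Syce1 and Tex12 (r = 0.99, 0.98 and 0.98), and for Slc25a31 Syce1, Hormad1 and Tex12 (0.98 each). Cyct went with Tex12, Syce1 and Sult6b1 (0.99, 0.97 and 0.97). Syce1 and Tex12 encode parts of the synaptonemal complex, which joins chromosomes in meiosis, and Hormad1 a protein of the meiotic chromosome axis. Rpl10l went with Ly6k, CN725425 and Rhox7b (0.99 each), and Pdha2 with 4933427D06Rik, Wfdc15a and Fthl17f (0.99 each). Ldhc went with Klf5, a transcription factor of trophoblast, Mnd1 and Platr3 (0.95, 0.93 and 0.93).

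A wider list of 24 germline copies of housekeeping genes, 17 of which could be tested, gave 12 called higher in Dnmt1 KO, 9 in Dnmt3b KO and 4 in Dnmt3a KO, where 8.19%, 1.83% and 0.196% of all genes were. The rest of the list failed the low-count filter. A listed gene near 0 in WT could pass it only through a mutant where it was high. The counts and medians of the list therefore partly follow the filter. Without libraries 11 and 12, fewer of the list and fewer of all genes were called higher in Dnmt3b KO. With all libraries, the median log2 fold changes of the 17 were 4.51 (Dnmt1 KO), 1.29 (Dnmt3a KO) and 2.69 (Dnmt3b KO). The largest in Dnmt1 KO were Tktl2 (a transketolase copy, 9.24), Cetn1 (a centrin, 8.26) and Tuba3b (an alpha tubulin, 8.10). In Dnmt3a KO they were Cox8c (a subunit of cytochrome c oxidase, 6.05), Tktl2 (5.63) and Tuba3a (2.94), and in Dnmt3b KO Tuba3b (9.92), Cox8c (7.63) and Tktl2 (7.41). Tuba3a and Tuba3b are near-identical copies, so the split of reads between them is uncertain. Some of the list were not called in any mutant: Hspa2, a heat shock protein of meiotic cells, was at -0.06, 0.11 and 0.05, and Cstf2t at -0.05, 0.02 and -0.09. Between Dnmt3b KO and Dnmt3a KO, 3 of 17 were called higher in Dnmt3b KO (Tuba3b 8.23, Tuba3a 3.70 and Taf7l 1.99), where 0.207% of all genes were. Fewer of the list and fewer of all genes were called there without libraries 11 and 12.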

How the data were processed

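There were 18 droplet single-cell libraries, each labelled as a single embryo, of which Dnmt3b KO 1 and 2 were summed. The deposited tables hold raw UMI counts per gene and barcode, which the authors made with Cell Ranger (named in the submitters' processing notes; mm10 per the study's methods). The file headers give version 3.1.0 in 17 libraries and 5.0.0 in Dnmt3b KO 12, and 4 libraries (WT 1, Dnmt3a KO 1 and 13, Dnmt3b KO 11) were mapped to a combined reference, of which only mouse genes were used.

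Barcodes with at least 1500 UMIs were kept. Counts were summed per embryo, and per embryo and marker-named class with at least 25 cells, and tested with edgeR 4.0.16 (R 4.3.3) by the quasi-likelihood test, with filterByExpr, TMM scaling, 1 model of the 4 groups and Benjamini-Hochberg adjustment over all genes. Genes were called at an adjusted p below 0.01 with a log2 change no smaller than 1. The quasi-likelihood test gives no SE. The SE printed for edgeR is the size of the log2 fold change divided by the square root of the F statistic, and is approximate. DESeq2 1.42.0 was an alternative. Ratios to a counterpart used log2 of UMIs plus 0.5 and exact two-sided permutation tests (scipy 1.17.1). Clusters were built with scanpy 1.11.5 and named from marker lists, so differences from the study's cell types may come from the rebuilt names. Possible doublets were kept in the main results and removed in an alternative. The fit was tested on simulated data for Dnmt3b KO against WT over 18571 genes. All changes of 4-fold or more and 50% of 2-fold changes were recovered, with 1 false call. The simulation gave every gene the same dispersion and changed only genes with a pooled level above 1 CPM. It therefore does not give the recovery or false calls for genes that spread more widely or are scarcer. Named genes were the 8 paralogues, their counterparts, the 3 most similar genes of each, and the 3 largest changes per mutant of the wider germline list; Hspa2 and Cstf2t were named after their values were seen. The genes and lists were chosen with earlier results of these data known. Depth limits low values: a count of 3 UMIs corresponds to 0.00955 to 0.0774 CPM in a library or summed pair.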

Additional observations from a re-analysis of the deposited data

Results flagged for a closer look

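Among 32 sets of values from the groups of 4 and 7 embryos, Dixon's test set 3 values apart, in 2 embryos, where chance flags about 1 in 20. Gapdhs stood at 0.0516 CPM in WT 5, the shallowest library, on 2 UMIs, and at 0.0228 UMIs per 1000 Gapdh UMIs in the same embryo. Ldhc stood at 31.7 UMIs per 1000 Ldhb UMIs in Dnmt3a KO 2, against a group median of 25.3.

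Barcodes below the minimum of 1500 UMIs, which entered no comparison, also held UMIs of 4 genes at a level above the highest WT library in each Dnmt1 KO and Dnmt3b KO library (Dnmt3b KO 1 and 2 counted separately). The median level of Rpl39l there was 60.3 CPM in Dnmt1 KO and 47.5 CPM in Dnmt3b KO, against at most 13.4 CPM in WT. Rpl10l was at 6.24 and 2.91 CPM (WT at most 0.977), Slc25a31 at 12.5 and 14.8 CPM (WT at most 4.69) and Cyct at 17.2 and 12.1 CPM (WT at most 3.52). Counts were very low in places. Dnmt1 KO 1 had 5 UMIs of Rpl39l, 1 of Rpl10l, 2 of Slc25a31 and 1 of Cyct among 160240. The WT maximum of Rpl10l also rested on 1 UMI, in WT 4. In Dnmt3a KO the libraries overlapped WT, although the medians of Slc25a31 (6.56 CPM) and Cyct (6.57 CPM) were above the highest WT library. Whether these barcodes are shallow cells or free RNA was not tested.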

How the results depend on the processing

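Against WT, leaving out 1 embryo at a time gave 6 to 6 calls in Dnmt1 KO, 3 to 4 in Dnmt3a KO and 5 to 5 in Dnmt3b KO. By class the ranges were 22 to 26, 11 to 33 and 56 to 67, and for ratio pairs 0 to 8, 6 to 6 and 0 to 6, the 0 because 2 against 7 embryos cannot reach the threshold. Between mutants they were 6 to 6 (Dnmt1 KO and Dnmt3a KO), 0 to 3 (Dnmt3b KO and Dnmt1 KO) and 2 to 5 (Dnmt3b KO and Dnmt3a KO). Replicate numbers gave no clear sign of pairing: 13 same-numbered pairs had correlations of -0.38 to 0.38, and 4 exceeded 0.1. Such values cannot exclude that some embryos of the same number were paired. With the replicate block (Dnmt3b KO 1 and 2 separate), 0 genes were called in Dnmt3a KO and 3 in Dnmt3b KO, 4 between Dnmt3b KO and Dnmt1 KO, 0 between Dnmt3b KO and Dnmt3a KO, and by class 0 in Dnmt3a KO and 21 in Dnmt3b KO (59 without the block). The same block left 1414, 1 and 5 of all genes called against WT, from 2695, 39 and 351, and 686, 1 and 634 between mutants, from 1669 (Dnmt3b KO and Dnmt1 KO), 41 (Dnmt3b KO and Dnmt3a KO) and 2531.

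The cause of the following changes was not tested. Between Dnmt3b KO and Dnmt1 KO 0 genes were called without ExE and unnamed cells. Between Dnmt3b KO and Dnmt3a KO 2 were called with the Y-linked covariate and 0 without Dnmt3b KO 11 and 12. By class, 15 calls were made in Dnmt1 KO with at least 50 cells (25 with 25 cells), and 42 in Dnmt3a KO with no low-count filter. The shares of all genes called by class in these settings are not given here. Over all genes, Dnmt3a KO against WT gave 110 calls with DESeq2, 63 with the Y-linked covariate, 64 without ExE and unnamed cells, 77 without libraries 11 and 12 and 23 to 88 with 1 embryo left out. Dnmt3b KO against WT gave 87 without libraries 11 and 12 and 194 without 12 alone. Dnmt3b KO against Dnmt1 KO gave 816 without both and 945 (without Dnmt1 KO 2) to 2187 with 1 embryo left out. Dnmt3b KO against Dnmt3a KO gave 108 (DESeq2), 22 (Y-linked covariate), 26 (reference covariate), 72 (without ExE and unnamed cells), 5 (without both) and 13 to 123 (1 embryo left out).

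Reversed directions concerned uncalled values, apart from Ldhc in Dnmt1 KO and between Dnmt3b KO and Dnmt1 KO without ExE and unnamed cells (-0.066 and 0.043). Ldhc was then at -0.29 in Dnmt3a KO and -0.023 in Dnmt3b KO, and at -0.19 in Dnmt3b KO without libraries 11 and 12. Between Dnmt3b KO and Dnmt3a KO it was at -0.44 with the block and -0.22 without both. Pdha2 in Dnmt3a KO was at -1.06 with the block, and Slc25a31 between Dnmt3b KO and Dnmt1 KO at -0.49 with it and -0.44 without both. The Gapdhs log2 ratio difference was -0.65 in Dnmt1 KO and 0.052 in Dnmt3a KO at a pseudocount of 0.1, and in Dnmt3a KO 0.19 with mitochondrial and ribosomal limits, 0.23 with doublets removed and 0.19 without ExE and unnamed cells. In Dnmt3b KO without those cells Ldhc to Ldha was at -0.0028 and Ldhc to Ldhb at -0.19. With 1 embryo left out, Ldhc in Dnmt3a KO ran from -0.16 to 0.14, Slc25a31 between Dnmt3b KO and Dnmt1 KO from -0.0098 to 0.57 (0.81 without Dnmt3b KO 1+2), Gapdhs to Gapdh from -0.58 to 0.66 (Dnmt1 KO) and -0.39 to 0.37 (Dnmt3a KO), Ldhc to Ldha from -0.24 to 0.044 (Dnmt3a KO) and Ldhc to Ldhb from -0.10 to 0.12 (Dnmt3b KO). Depth limits Pgk2, Gapdhs and Pdha2 in Dnmt3a KO, where differences were not detectable.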
